A study of Homo sapiens with 6 samples.

Results

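Histone deacetylases remove acetyl groups from lysines of histones and other proteins. The genes described here are HDAC1, HDAC2, HDAC3 and HDAC8 of class I, HDAC4, HDAC5, HDAC7 and HDAC9 of class IIa, HDAC6 of class IIb, and HDAC11, the class IV enzyme. These 10 genes were chosen by name from the 20163 protein-coding genes of the GENCODE annotation on chromosomes 1 to 22, X and Y. The data were peak lists of chromatin immunoprecipitation followed by sequencing (ChIP-seq) against PAI-1 (plasminogen activator inhibitor-1), a secreted protein known for blocking fibrinolysis. Nuclear extracts came from the human bladder cancer lines RT112 and UM-UC-3, both established, with 2 replicate ChIP libraries of each. No treatment or genetic change is named for either line in the labels, and the inputs, 1 per line, were not analysed here. The 4 lists held 60227 to 114094 peaks, and RT112 replicate 2 had the fewest. They give positions and a score for each peak but no read counts, so the depth of the libraries is unknown.

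Class I enzymes are mostly nuclear. HDAC1 and HDAC2 are the catalytic subunits of the SIN3, NuRD, CoREST and MiDAC co-repressor complexes, and HDAC3 is that of the NCoR/SMRT complex. Class IIa enzymes bind MEF2 transcription factors and move between nucleus and cytoplasm. HDAC6 acts largely on tubulin in the cytoplasm. The study used HDAC2 as a site for ChIP followed by PCR, which raises the question of where peaks lay in and around these genes and whether the 2 cell lines differed.

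A peak was assigned to a gene when it lay in the gene or within 10 kb of it, and it was called repeated when it overlapped a peak of the other replicate of the same line by at least 1 bp. Between them the 10 windows held 211 peaks in the 4 libraries. Introns held 168 of these, 15 touched an exon of some transcript, 5 of them coding sequence, and 28 lay outside the gene. They lay mostly away from the start of the canonical transcript, the 1 that the annotation marks as representative, and 1 of the 211 was within 3 kb of it. The genes have 10 (HDAC1) to 52 (HDAC6) distinct transcript starts. Within 3 kb of any of these lay 10 and 6 peaks of the RT112 replicates and 7 and 3 of those of UM-UC-3. These counts were not set against all peaks.

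The sequences of the HDAC2 PCR product and of the repeated HDAC7 peak near a transcription start site (TSS) are shown because the results at these genes turn on these sites. Both are the plus strand of GRCh37, the assembly of hg19, and neither overlaps an exon of its gene. In the HDAC7 peak, capitals mark runs of at least 10 purines or at least 10 pyrimidines. In the PCR product they mark the primer sites.
HDAC2 PCR product, chr6:114292863-114293162: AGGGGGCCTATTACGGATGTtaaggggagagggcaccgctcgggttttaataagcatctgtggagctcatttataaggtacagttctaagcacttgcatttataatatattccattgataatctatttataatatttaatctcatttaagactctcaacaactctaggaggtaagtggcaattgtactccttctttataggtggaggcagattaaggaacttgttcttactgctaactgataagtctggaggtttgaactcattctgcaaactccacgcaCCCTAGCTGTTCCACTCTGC
HDAC7 repeated peak of UM-UC-3, replicate 1 ends, chr12:48224363-48224586: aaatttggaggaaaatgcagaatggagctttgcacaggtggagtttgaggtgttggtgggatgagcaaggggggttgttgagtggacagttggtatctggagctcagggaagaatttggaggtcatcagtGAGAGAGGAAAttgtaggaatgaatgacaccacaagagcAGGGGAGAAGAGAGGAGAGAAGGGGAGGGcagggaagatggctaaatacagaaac
The HDAC7 peak held an unbroken purine run of 29 bases. Runs of 10 or more were common everywhere. They were present in 57.6% to 77.8% of the peaks of the 10 genes per library, in 65.6% to 69.8% of all peaks, and in 66.1% to 69.7% of windows of the same width placed 2 kb beyond each of all the peaks.

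HDAC2, a class I enzyme on the minus strand (chr6:114254192-114332472, 78.3 kb), had more peaks around it in RT112 than in UM-UC-3 by this count, though not within the gene. The RT112 replicates each held 2 peaks in its window, while UM-UC-3 held 1 in the first replicate and 0 in the second. Both RT112 libraries were therefore above both UM-UC-3 libraries, a pattern met by 9.62% of all protein-coding genes and by HDAC2 alone among the 10. The mean was 20.3 ± 0 peaks per Mb (SD, n = 2) in RT112 and 5.09 ± 7.19 (SD, n = 2) in UM-UC-3. The exact permutation test of 2 against 2 libraries gave a two-sided p of 0.333, the smallest it can give. Within the gene body each line had 1 peak in replicate 1 and 0 in replicate 2, a difference of 0, and with scores of at least 5 or the 25% highest scores the difference was 0 as well. The intronic peak of RT112 lay 21.5 kb upstream of the canonical TSS and scored 2.30, and that of UM-UC-3 lay 9.96 kb past it and scored 3.88.

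The PCR product of HDAC2 matched GRCh37 at a single place on chromosome 6, where it spans 300 bp from 551 to 850 bp upstream of the canonical TSS. The number of peaks overlapping it was 0 in each of the 4 libraries. The nearest peak of any library was 10.5 kb away, in UM-UC-3 replicate 1. The deposited peak lists thus placed no region at the PCR site. The text of the study lists the primers but states no PCR result for HDAC2, so the lists were not compared with one.

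HDAC1, the paralog of HDAC2 in the same complexes (chr1:32757684-32799236, plus strand), had 2 and 0 peaks in the RT112 replicates, against 3 and 2 in those of UM-UC-3. The groups overlapped, since RT112 replicate 1 matched UM-UC-3 replicate 2. Its 1 repeated region lay beyond the end of the gene, at chr1:32804441-32804797 in UM-UC-3 replicate 1, where no other protein-coding gene is annotated. The score was read as a −log10 significance from the peak caller, and whether it is of p or of q is not stated. This region scored 15.9 and 17.8, and in UM-UC-3 replicate 2 this was the highest score found for any of the 10 genes. It lay 46.8 kb from the TSS. The closest peak to the HDAC1 TSS was 5.23 kb upstream, in UM-UC-3 replicate 1, and was not repeated. In RT112 the closest was 11.4 kb upstream, in replicate 2.

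HDAC3, the subunit of NCoR/SMRT (chr5:141000443-141016416, minus strand), had 1, 0, 1 and 1 peaks in the 2 RT112 and the 2 UM-UC-3 libraries, and none was repeated. The RT112 replicate 1 peak overlapped coding sequence and an alternative TSS 10.7 kb into the gene, with a score of 4.94. The nearest UM-UC-3 peak to the TSS was intronic, 5.85 kb into the gene in replicate 1. The UM-UC-3 replicate 2 peak lay past the gene end, in the neighbouring gene DIAPH1.

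HDAC8, an X-linked class I enzyme (chrX:71549366-71792951, minus strand, 244 kb), had the highest count of any of the 10 genes other than HDAC9. Its window held 16 and 6 peaks in the RT112 replicates, while the UM-UC-3 replicates held 7 and 8. The RT112 replicates differed more from each other than RT112 replicate 2 did from UM-UC-3. The difference between the lines, UM-UC-3 minus RT112, was -13.3 peaks per Mb and changed sign to 5.69 without RT112 replicate 1. Despite the different counts, each line had 5 repeated regions. The repeated region with the highest mean score was in UM-UC-3 at chrX:71602694-71602998, with identical ends and scores of 11.3 and 12.9. In RT112 it was at chrX:71568149-71568615 in replicate 1, with scores of 8.75 and 7.90. A further gene, ENSG00000285547, is annotated across HDAC8, so peaks in it belong to both annotations.

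Of the 5 regions repeated in UM-UC-3 at HDAC8, 1 also met a peak of RT112. The UM-UC-3 peak at chrX:71744403-71744751 scored 8.09 and 6.57, and an RT112 replicate 1 peak with a score of 10.1 lay within it. It lay 47.9 kb into the gene from the canonical TSS. RT112 replicate 2 had no peak there. The peak nearest to that TSS was 3.15 kb upstream in UM-UC-3 (chrX:71795842-71796205, replicate 1) and 17.5 kb into the gene in RT112 (chrX:71774924-71775169, replicate 1), and neither was repeated.

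HDAC9, a class IIa enzyme, is by far the longest of the 10 (chr7:18126572-19042039, plus strand, 915 kb) and held most of the peaks. Its window had 26 and 18 peaks in the RT112 replicates. Those of UM-UC-3 had 46 and 38, both above both of RT112. These made up 48.1%, 56.3%, 69.7% and 64.4% of the peaks of all 10 genes in the same order. The mean was 23.5 ± 6.05 peaks per Mb (SD, n = 2) in RT112 and 44.9 ± 6.05 (SD, n = 2) in UM-UC-3, a difference of 21.4 (p = 0.333 by the same exact test). UM-UC-3 had 29 repeated regions and RT112 had 11. HDAC9 and HDAC4 were the 2 genes of the 10 with both UM-UC-3 libraries above both RT112 libraries, against 30.8% of all protein-coding genes and 57.5% of the 200 genes nearest to HDAC9 in length. Among those 200 genes the density of HDAC9 stood at percentile 33 and 45 for RT112 and at 80 and 50.5 for UM-UC-3. Against 50 genes near in both length and G and C content, the percentiles were 62, 80, 84 and 56.

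The excess in UM-UC-3 lay in the part of HDAC9 that follows the canonical TSS. In the 409 kb before that TSS the libraries held 14 and 11 peaks in RT112 against 16 and 14 in UM-UC-3. In the 507 kb from it to the gene end they held 10 and 6 peaks in RT112 against 29 and 23 in UM-UC-3. The longest stretch of the gene without a peak was 194 kb in RT112 replicate 1 and 263 kb in RT112 replicate 2, both in that later part. Within the first of these stretches RT112 replicate 2 had 0 peaks, UM-UC-3 replicate 1 had 12 and UM-UC-3 replicate 2 had 14. The longest stretch without a peak in UM-UC-3 was 83.7 kb in replicate 1 and 92.7 kb in replicate 2. The former, before the canonical TSS, held 0 peaks of UM-UC-3 replicate 2 and 5 of each RT112 replicate. The latter held 3 and 1 peaks of RT112 and 4 of UM-UC-3 replicate 1. The division at the canonical TSS and the stretches were chosen after the values were seen and were not tested. The surrounding 1 Mb on each side of the window moved the same way, with 22.5 and 9 peaks per Mb for RT112 against 40.5 and 43 for UM-UC-3, and the part of this in the result was not tested.

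**Figure D1:**
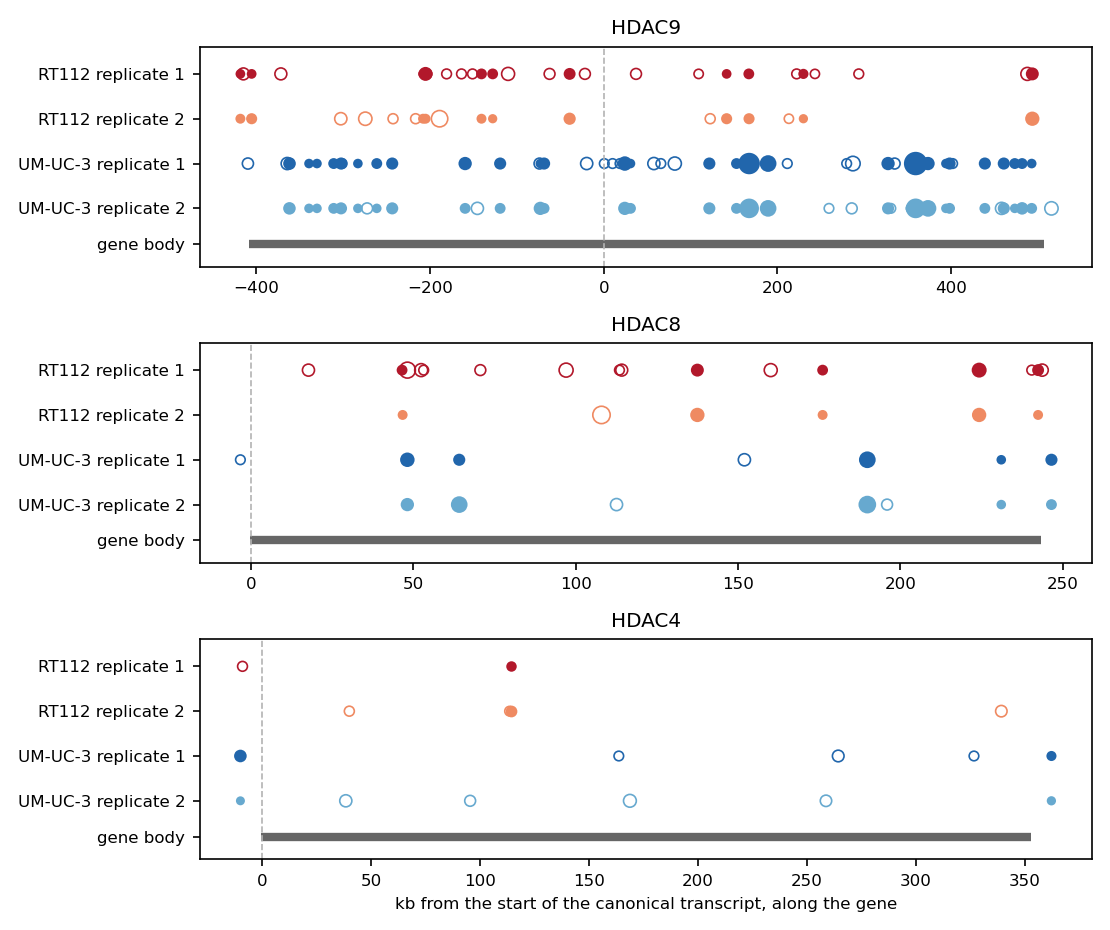
Peak positions along HDAC9, HDAC8 and HDAC4 in the 4 libraries, in kb from the canonical TSS (dashed line) along the gene. Filled points are repeated peaks, open points are not, point size rises with the score, and the grey bar is the gene. In the later part of HDAC9 a stretch of 194 kb has no peak of either RT112 replicate. RT112 replicate 2 has none over 263 kb, where RT112 replicate 1 has 4.

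The peaks of HDAC9 with the highest scores were in introns. They are shown because 1 scored highest of all repeated peaks of the 10 genes and the other was met in both lines, and they were chosen after their values were seen. Capitals have the same meaning as before.
HDAC9 highest-scoring repeated peak, chr7:18894582-18894846: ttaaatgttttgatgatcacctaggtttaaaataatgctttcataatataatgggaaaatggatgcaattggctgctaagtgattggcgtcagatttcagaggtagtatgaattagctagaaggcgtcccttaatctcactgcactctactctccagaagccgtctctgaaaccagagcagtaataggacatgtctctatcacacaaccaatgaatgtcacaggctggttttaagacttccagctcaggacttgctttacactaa
HDAC9 peak met in both cell lines, chr7:18702804-18703061: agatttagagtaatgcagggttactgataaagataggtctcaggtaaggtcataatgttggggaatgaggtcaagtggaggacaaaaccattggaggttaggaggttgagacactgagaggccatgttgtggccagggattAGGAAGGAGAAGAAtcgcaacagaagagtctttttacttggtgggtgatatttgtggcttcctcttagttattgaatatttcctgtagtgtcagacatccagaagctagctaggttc
The first had identical ends in both UM-UC-3 replicates, scores of 23.8 and 16.3 and no purine or pyrimidine run over 7 bases, and lay 359 kb past the canonical TSS. RT112 had no peak there. The other scored 19.7 and 16.1 in UM-UC-3, also with identical ends, and lay within an RT112 replicate 2 peak at chr7:18702543-18703066 with a score of 4.09. An RT112 replicate 1 peak at chr7:18702393-18702690 overlapped that of RT112 replicate 2 but not those of UM-UC-3. The highest mean score of a repeated RT112 peak was at chr7:19028965-19029240, an intron 494 kb past the canonical TSS, with identical ends and scores of 6.14 and 7.85. A second UM-UC-3 region, at chr7:18232623-18232929, scored 5.19 and 5.16 and overlapped a peak of RT112 replicate 2 with a score of 5.29.

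HDAC9 was the gene of the 10 with a repeated peak on an alternative start. In RT112 a repeated peak, chr7:18329981-18330266 in replicate 1 and chr7:18330028-18330263 in replicate 2, covered the starts of 3 of the 36 transcripts, 205 kb upstream of the canonical TSS. Its scores were 7.43 and 2.97. A peak of UM-UC-3 replicate 1 with a score of 2.64 began 0.472 kb past the canonical TSS and covered the starts of 4 transcripts. It was not repeated, and the nearest peak of the other UM-UC-3 library was 24.2 kb from that TSS. In RT112 the nearest was 21.4 kb upstream, in replicate 1.

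HDAC4, another class IIa enzyme (chr2:239969864-240323348, minus strand, 353 kb), had few peaks for its length. Its window held 2 and 4 peaks in RT112 against 5 and 6 in UM-UC-3, which is 8.03 ± 3.79 and 14.7 ± 1.89 peaks per Mb (SD, n = 2 each). The groups did not overlap, and the difference was 6.69 peaks per Mb (p = 0.333 by the same exact test). The separation came with the 10 kb flanks: in the gene body RT112 had 1 and 4 peaks and UM-UC-3 had 3 and 4, which overlap, and the difference was 2.83. It was 2.78 in a 3 kb window and 0 with the 25% highest scores. Compared with the 200 protein-coding genes nearest in length, HDAC4 stood at percentile 3 and 16.5 for RT112 and at 5 and 4 for UM-UC-3. Its window is 51.3% G and C, above 98% of those genes. Against 50 genes near in both length and G and C content, the percentiles were 6, 18, 14 and 16, and the part of base composition in the low density was not tested further. In RT112 replicate 1 a single peak lay in the gene, and 238 kb of it, 67.4% of its length, held none.

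The 1 repeated HDAC4 region of RT112 was at chr2:240208238-240208485, in an intron 114 kb from the canonical TSS, with identical ends and scores of 3.46 and 4.75. UM-UC-3 had 2 repeated regions, both outside the gene. The first, at chr2:240332702-240332951 in replicate 1, lay 9.99 kb upstream of the canonical TSS and scored 5.75 and 2.13. The other, at chr2:239960195-239960507 in replicate 1, lay just inside the 10 kb limit downstream and scored 3.10 and 2.36. None of the peaks inside HDAC4 was repeated in UM-UC-3. The RT112 peak nearest to the canonical TSS was 8.99 kb upstream, in replicate 1, and was not repeated.

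HDAC5, a class IIa enzyme (chr17:42154114-42201070, minus strand), had 1 peak in each of the 4 libraries. In RT112 these were intronic, 4.97 kb and 5.41 kb past the canonical TSS, and did not overlap each other. In UM-UC-3 the peak was the same in both replicates, chr17:42145205-42145470, downstream of the gene, with scores of 5.67 and 4.73. The equal counts thus came from different places in the 2 lines. The UM-UC-3 peak nearest to the canonical TSS was 20.4 kb upstream, in replicate 1, outside the window.

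HDAC7, the class IIa enzyme next to the vitamin D receptor gene VDR (chr12:48176505-48226915, minus strand), had 1 and 0 peaks in RT112 against 1 and 1 in UM-UC-3. The repeated UM-UC-3 peak printed above scored 5.73 and 8.94. It lay 2.33 kb inside the gene from the outermost TSS, which 1 of the 30 transcripts uses, and 10.7 kb upstream of the canonical TSS. In RT112 replicate 1 the peak was in VDR, 21.7 kb upstream of the canonical TSS, and scored 2.12.

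HDAC6, the tubulin deacetylase (chrX:48659784-48683392, plus strand), had 3 and 1 peaks in RT112 against 1 and 2 in UM-UC-3. Its repeated RT112 peak, chrX:48651122-48651362 in replicate 1, was 8.42 kb upstream of the gene, within the neighbouring gene GATA1, and scored 4.93 and 3.31. None of the peaks in the gene body was repeated. The peak nearest to the canonical TSS was 4.78 kb past it in RT112 (chrX:48665256-48665502, replicate 1) and 4.79 kb upstream in UM-UC-3 (chrX:48655474-48655686, replicate 2).

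HDAC11, the class IV enzyme (chr3:13521224-13547924, plus strand), had 0 peaks in its window in each of the 4 libraries. The nearest peak to the gene was 16.0 kb and 15.3 kb away in RT112 and 46.4 kb and 33.1 kb away in UM-UC-3. The closest to the canonical TSS was 16.6 kb upstream in RT112 replicate 1 and 33.6 kb upstream in UM-UC-3 replicate 2. Having no peak in any library was shared with 14.2% of all protein-coding genes and with 11% of the 200 genes nearest to HDAC11 in length.

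A repeated peak in the gene or within 10 kb was found for 5 of the 10 genes in RT112 (HDAC2, HDAC8, HDAC4, HDAC9 and HDAC6), when 43.2% of all protein-coding genes had one. In UM-UC-3 it was found for 6 of the 10 (HDAC1, HDAC8, HDAC4, HDAC5, HDAC7 and HDAC9), against 63.3% of all genes. Both shares are near those of genes at large, which were not matched in length here. With the score held to at least 5, RT112 had 2 such genes and UM-UC-3 had 4, against 25.4% and 40.2% of all genes. With peaks in gene bodies alone they were 3 and 3, against 31.9% and 46.9%. The counts thus fell, and so did the shares of all genes. HDAC8, HDAC4 and HDAC9, the longest genes of the 10, had repeated peaks in both lines. Taken singly, each line had one in 93.5% or more of the genes matched to these in length. For the rest of the 10 the length-matched share in RT112 ran from 26% for HDAC3 to 57% for HDAC2. In UM-UC-3 it ran from 49% for HDAC3 to 86% for HDAC2. The 10 genes as a set were not tested against these shares.

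Within 3 kb of the canonical TSS, the repeated peaks numbered 0 for the 10 genes in either line. Of 19881 genes with a canonical TSS, 3.71% had one in RT112 and 8.64% in UM-UC-3. Taking the outermost TSS of each gene instead, 1 of the 10 genes had one in RT112, where 3.83% of all genes did, and HDAC7 had one in UM-UC-3, where 9% did. HDAC9 lay at the edge of this limit in RT112, with a repeated peak 3.03 kb past its outermost TSS in replicate 1 and 2.98 kb in replicate 2. RefSeq promoter windows, 300 bases each on GRCh38.p14, numbered 19 for these genes, some with several, and HDAC5 had none. All 19 matched GRCh37 letter for letter at 1 place on the chromosome of their gene, the only one searched. A peak overlapped 1 of these, the alternative HDAC9 promoter at chr7:18535635-18535934, in UM-UC-3 replicate 1. The median G and C content was 58.3% in these promoters and 39.3% in the peaks of the 10 genes. HDAC9, which held most of these peaks, has a window of 36.1% G and C, the lowest of the 10.

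**Figure D2:**
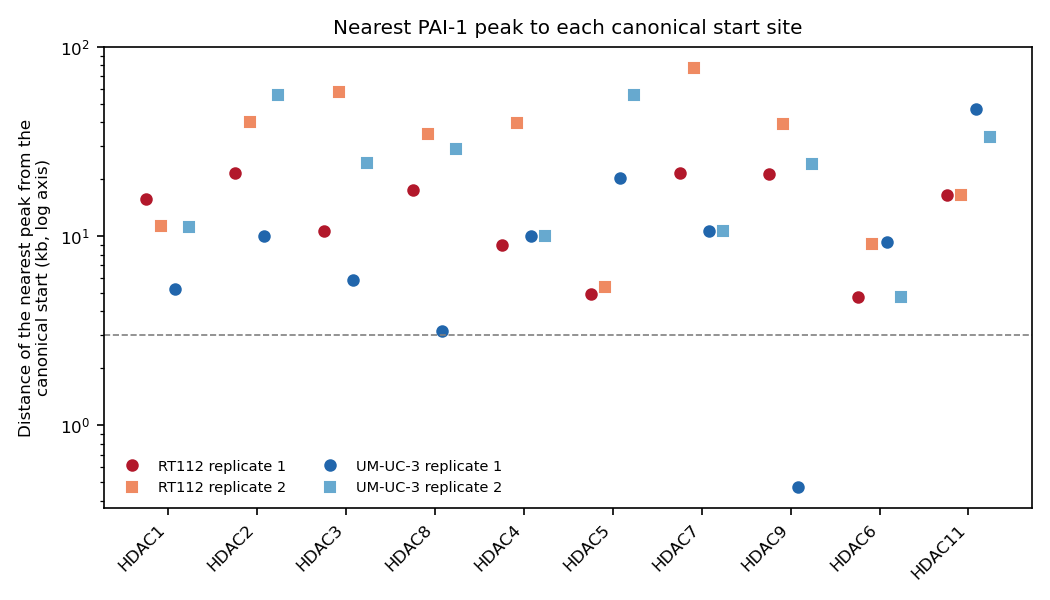
Distance in kb, on a log axis, from the canonical TSS of each gene to the nearest peak of each library. The dashed line is at 3 kb; 1 point, HDAC9 in UM-UC-3 replicate 1 at 0.472 kb, lies below it.

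Over the 10 windows together, 1996 kb, there were 54 and 32 peaks in RT112 against 66 and 59 in UM-UC-3. The density was 27.1 and 16.0 peaks per Mb in RT112 against 33.1 and 29.6 in UM-UC-3, with means of 21.5 ± 7.79 and 31.3 ± 2.48 (SD, n = 2 each). The difference of 9.77 peaks per Mb was larger than the SD of either line, and the libraries did not overlap (p = 0.333 by the same exact test). It rested on HDAC9: without that gene the other 9 had 19.8 peaks per Mb in RT112 and 19.3 in UM-UC-3, a difference of -0.471, while without HDAC4 alone it was 10.5. Without both it was -4.37. It was 4.26 without RT112 replicate 2 and 15.3 without RT112 replicate 1.

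The lists of UM-UC-3 are longer in all, so the density was also divided by that of the genes nearest in length. This relative density was 0.810 and 0.771 for RT112 against 0.890 and 0.757 for UM-UC-3, where 1 means as dense as 200 length-matched protein-coding genes. All 4 values were below 1. The match was on length alone, and the value for the set was not matched on G and C content. Leaving out HDAC4 alone brought the RT112 mean from 0.790 to 0.912 and the UM-UC-3 mean from 0.824 to 0.938. The means were 0.790 ± 0.0273 and 0.824 ± 0.0935 (SD, n = 2 each), and the difference of 0.0331 was smaller than the SD of UM-UC-3 (exact permutation test, two-sided p = 1). It turned to -0.0329 without UM-UC-3 replicate 1. With scores of at least 5 it was 0.335, from 0.501 in RT112 to 0.835 in UM-UC-3, and with the 25% highest scores 0.0841, and at both settings the libraries of the lines did not overlap (exact permutation test, two-sided p = 0.333, which is the smallest value). Without HDAC9 it was -0.219, and without HDAC9 and HDAC4 it was -0.404, from 1.04 in RT112 to 0.635 in UM-UC-3 (exact permutation test, two-sided p = 0.333). Single genes spread widely around their length-matched mean, from 0 at HDAC11 to 3.35 times at HDAC6 in RT112 replicate 1, where the window held 3 peaks.

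**Figure D3:**
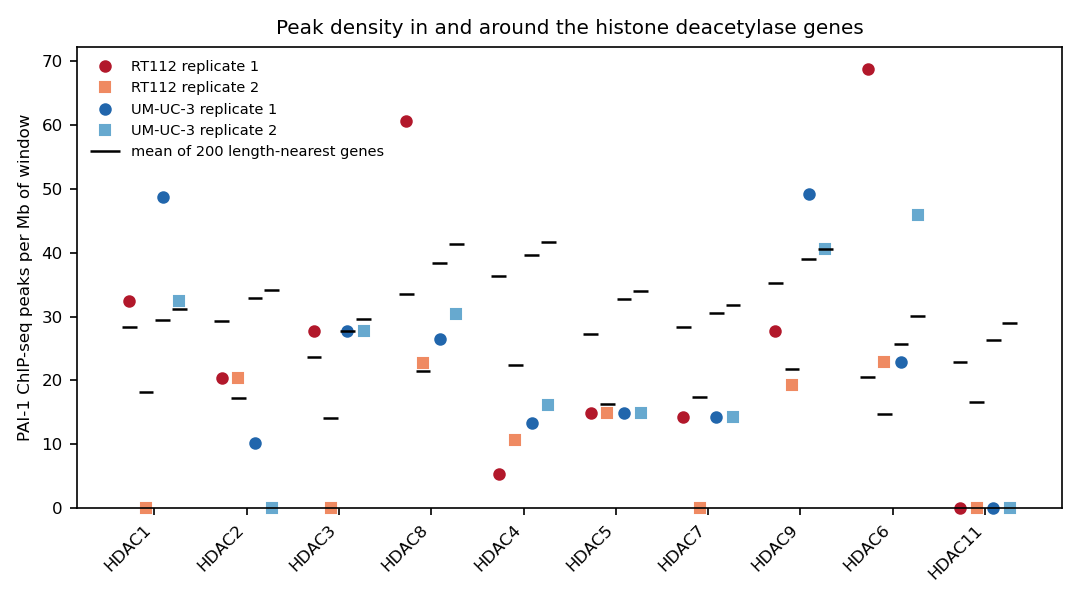
Peaks per Mb of window for each of the 10 genes in the 4 libraries (points), with the mean of the 200 protein-coding genes nearest in length as a black bar beside each point. HDAC11 is at 0 in all 4 libraries, and HDAC4, HDAC5 and HDAC7 are below their bars in all 4. HDAC9 is above its bar in UM-UC-3 replicate 1 (49.2 against 39.1 peaks per Mb). In UM-UC-3 replicate 2 it is level with its bar (40.62 against 40.56), and in both RT112 libraries it is below.

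The share of repeated peaks was compared with that of each whole list. In RT112 35.2% of those of replicate 1 and 59.4% of those of replicate 2 were repeated, against 38.2% and 61.3% of all peaks. The UM-UC-3 shares were 59.1% and 66.1%, against 74.9% and 71.7%. The difference in these shares was not tested. Of 39 replicate pairs in UM-UC-3, 19 had identical ends and 34 had both ends within 5 bp. Of 19 pairs in RT112, 7 were identical and 13 were within 5 bp.

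Scores of the 10 genes were mostly low. The median was 3.80 and 2.97 for RT112 against 4.62 and 3.85 for UM-UC-3, beside medians of 3.80, 4.09, 3.88 and 3.85 over all peaks. Most peaks took a small set of score values: 40 of 54, 23 of 32, 51 of 66 and 42 of 59 peaks had 1 of the 10 commonest values of their library. This was near the share of all peaks, which was 76.0%, 76.5%, 75.1% and 74.8% in the same order. Mean scores of repeated pairs reached 8.33 in RT112 and 20.0 in UM-UC-3.

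**Figure D4:**
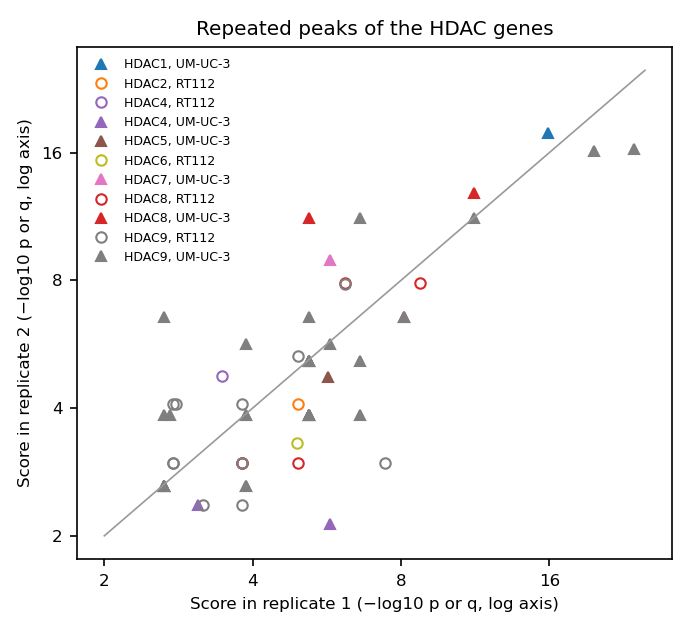
Score of each repeated peak of the 10 genes in replicate 1 and replicate 2 of its cell line, on log axes, with the line of equal scores. Open circles are RT112, filled triangles are UM-UC-3 and colours are genes; the pairs over 15 in both replicates belong to HDAC9 and HDAC1 in UM-UC-3.

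Few sites in these genes had peaks of both lines. Of the 211 peaks, 9 overlapped a peak of the other line, at 2 sites in HDAC9 and 1 in HDAC8 described above. Per library this was 1.85% and 6.25% for RT112 against 4.55% and 5.08% for UM-UC-3. Over all peaks it was 7.02%, 7.73%, 5.98% and 5.91% in the same order.

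The partners of these enzymes were counted in the same way, from a list of 56 genes that encode co-repressor subunits, sirtuins (the other family of lysine deacetylases), lysine acetyltransferases and MEF2 factors. Of the 56, 11 had no peak in any library, against 14.2% of all genes. A repeated peak lay in the gene or within 10 kb for 26 of the 56 in RT112, or 46.4%, and for 35 in UM-UC-3, or 62.5%, again near the shares of all genes. By group, these were 4 and 4 of 5 for NCoR/SMRT, 3 and 6 of 12 for SIN3, 5 and 8 of 11 for NuRD, 2 and 3 of 4 for CoREST, 3 and 3 of 3 for MiDAC, 2 and 2 of 7 for sirtuins, 6 and 6 of 10 for acetyltransferases and 1 and 3 of 4 for MEF2, with RT112 first. The groups differ in length, with a median of 21.3 kb for the sirtuins and 209 kb for the NCoR/SMRT genes. A repeated peak within 3 kb of the canonical TSS was found for SIRT3, a mitochondrial sirtuin, in RT112, and for SIRT5, another mitochondrial sirtuin, and SIN3B, a SIN3 scaffold, in UM-UC-3. These are 1 and 2 of the 56 genes, against 3.71% and 8.64% of all genes with a canonical TSS. CHD3, a NuRD remodeller, had one at its outermost TSS in both lines.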

How the data were processed

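ChIP-seq peak lists of 4 libraries were analysed, with groups and replicate numbers from the labels. The authors mapped 100 bp paired reads to hg19 with Bowtie 1.1.1, removed duplicates with Picard and called peaks with MACS2 2.1.0.20140616. FastQC and Trimmomatic are also named in the submitters' processing notes. Use of the input as control, the threshold set for these lists and pooling are not given in the sources used here; a legend of the study limits the false discovery rate of bound probe sets, without tying this to the lists. The deposited score was read as −log10 significance, of p or of q; its lowest value was 2.00 to 2.01. No read counts are listed, so depth is unknown and no interval was computed. That replicates came from separate cultures rests on the label's word for biological replicates, and p-values cover the spread between 4 libraries.

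Lines with the same ends were counted once. Gene models were GENCODE 44 on GRCh37, and 0 of 380031 peaks ended past a GRCh37 chromosome. Peaks were counted in each gene with 10 kb on each side and compared with the 200 genes nearest in length (alternatives: 100, 500, or 50 near in G and C content among 500), and with 1 Mb flanks. Differences between lines were tested with the exact permutation test over libraries, two-sided. The counting was tested on simulated peaks. Python 3.11.15, numpy 2.4.6, pandas 2.3.3 and pyfaidx 0.9.0.4 were used. All 10 genes were named, with, per line, the repeated peak of highest mean score and the peak nearest the canonical TSS or its distance; partner genes were named where a repeated peak lay within 3 kb of a TSS. The genes and lists were chosen with earlier results of these data known. RefSeq supplied the promoter windows and the supplement of the study the primers. An item that the rule on named peaks and sequences also named is not reported here.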

Additional observations from a re-analysis of the deposited data

How the results depend on the processing

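The density difference between the lines kept its direction when each line of the lists was counted, with scores of at least 5, with the 25% of peaks that scored highest, in the gene body alone and in a 3 kb window. It was reversed to -4.37 peaks per Mb without HDAC4 and HDAC9 and to -0.471 without HDAC9 alone, and leaving out 1 replicate at a time gave 4.26 to 15.3. The relative density difference of 0.0331 kept its direction under the same settings and with 100 or 500 length-matched genes, but rose to 0.335 with scores of at least 5 and to 0.0841 with the 25% highest scores, where p fell from 1 to 0.333. It was reversed to -0.404 without HDAC4 and HDAC9 and to -0.219 without HDAC9 alone, and leaving out 1 replicate at a time gave -0.0329 to 0.0992. With a replicate block the differences were the same, 9.77 and 0.0331, with paired permutation p-values of 0.5, the smallest possible, and 1. Over 20163 genes the deviations of same-numbered libraries had a correlation of 0.000149. Peak counts per gene are low, so a shared batch need not show in this value. Whether same-numbered libraries were handled together is not known. The count of HDAC genes with a repeated peak moved from 5 in RT112 to 2 with scores of at least 5, 1 with the 25% highest scores and 3 in the gene body, where the shares of all genes were 25.4%, 20.5% and 31.9%. In UM-UC-3 it moved from 6 to 3 with the 25% highest scores, 3 in the gene body and 3 in the 3 kb window, where those of all genes were 30.4%, 46.9% and 51.7%. Counting peaks of 1 replicate alone, an alternative chosen after seeing the data as were the match on G and C content, the canonical TSS and leaving out HDAC9 alone or HDAC4 alone, gave 6 to 9 genes in RT112 and 8 to 9 in UM-UC-3, against 54.7% to 65.9% and 70.9% to 71.8% of all genes. A reciprocal overlap of 50% changed neither count.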
